A study of Homo sapiens with 6 samples.

Results

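The 10 genes described here encode angiogenic and anti-angiogenic factors, and they were selected by gene symbol from 30618 genes in the count data. They are the VEGF family ligands VEGFA, VEGFB, VEGFC and PGF, the receptor KDR, the co-receptors NRP1 and NRP2, the anti-angiogenic factors SERPINF1 (PEDF) and THBS1 (thrombospondin-1), and the secreted lipase inhibitor ANGPTL4. RNA-seq compared ARPE-19 cells, an established human retinal pigment epithelial (RPE) cell line, after transfection with a non-targeting control siRNA (NC) or with an siRNA against EIF1 (siEIF1). EIF1 is a translation initiation factor that takes part in start codon selection. All cells were cultured in 50 mM glucose as a model of diabetic retinopathy, and each group had 3 biological replicates. The comparison therefore addresses what EIF1 knockdown did to these factors under high glucose. It holds 1 cell line and 1 siRNA against EIF1, and no libraries at normal glucose or with an osmotic control were analysed here.

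The RPE lies between the photoreceptors and the choroidal capillaries. It secretes VEGF-A towards the capillaries and PEDF towards the retina, and the balance of such factors is known to maintain the vessels and to be disturbed in diabetic retinopathy. VEGF-A signals through the tyrosine kinase receptors FLT1 and KDR, with the neuropilins NRP1 and NRP2 as co-receptors that also bind class 3 semaphorins, while thrombospondin-1 acts through CD36 and CD47 to restrain endothelial cells.

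The libraries held 26499929 to 31431479 counts, and 16749 genes were tested after the removal of low-count genes. EIF1 had an FPKM (a level scaled by gene length and library size) of 286 ± 7.60 in NC and 23.5 ± 0.80 in siEIF1 (SD, n = 3), which is 8.22% of the NC level. RPE markers were partly present, with BEST1 at a mean FPKM of 66.0 in NC and OTX2 at 17.8, but LRAT at 0.12 and TYRP1 at 0.063. Of 7 endothelial markers analysed, PECAM1, CDH5, TEK and VWF reached at most 2, 1, 3 and 5 counts in any library, TIE1 and ESAM reached 15 and 31, and ROBO4 was detected at 396 to 564 counts. In whole-culture RNA, fewer cells of a type and less RNA per cell cannot be told apart.

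Of the 10 genes, 9 were tested, and 4 of them passed an adjusted p under 0.05 (edgeR quasi-likelihood test, Benjamini-Hochberg adjustment over all tested genes). VEGFA, NRP1 and ANGPTL4 fell in siEIF1 and THBS1 rose. Among all tested genes, 10.4% fell and 10.2% rose at the same threshold, against 3 and 1 of these 9 genes. VEGFB, VEGFC, KDR, NRP2 and SERPINF1 did not pass, and PGF was too low to be tested. The median log2 fold change of the 9 genes was -0.12, against 0.0033 for all tested genes. Their median standard error was 0.13, against 0.086 for all tested genes. With the additional limit of a fold change above 2 or below 0.5, only ANGPTL4 passed, where 1.31% of all tested genes passed as lower and 0.4% as higher. The groups did not overlap in CPM (counts scaled to the library total with TMM factors) for VEGFA, VEGFC, NRP1 and ANGPTL4 as lower and for THBS1 as higher, while 18.9% of all tested genes separated as lower and 18.2% as higher. The summed FPKM of 7 pericyte and smooth muscle markers also differed between the groups, from 18.1 to 22.2 in NC and from 29.9 to 33.1 in siEIF1. Most of this sum came from ACTA2 and PDGFRB. RGS5 (log2 fold change -0.29) and CSPG4 (0.28) did not pass the test, and DES, MYH11 and NOTCH3 reached at most 2, 12 and 11 counts. The part of these markers in these results was not tested.

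**Figure D1:**
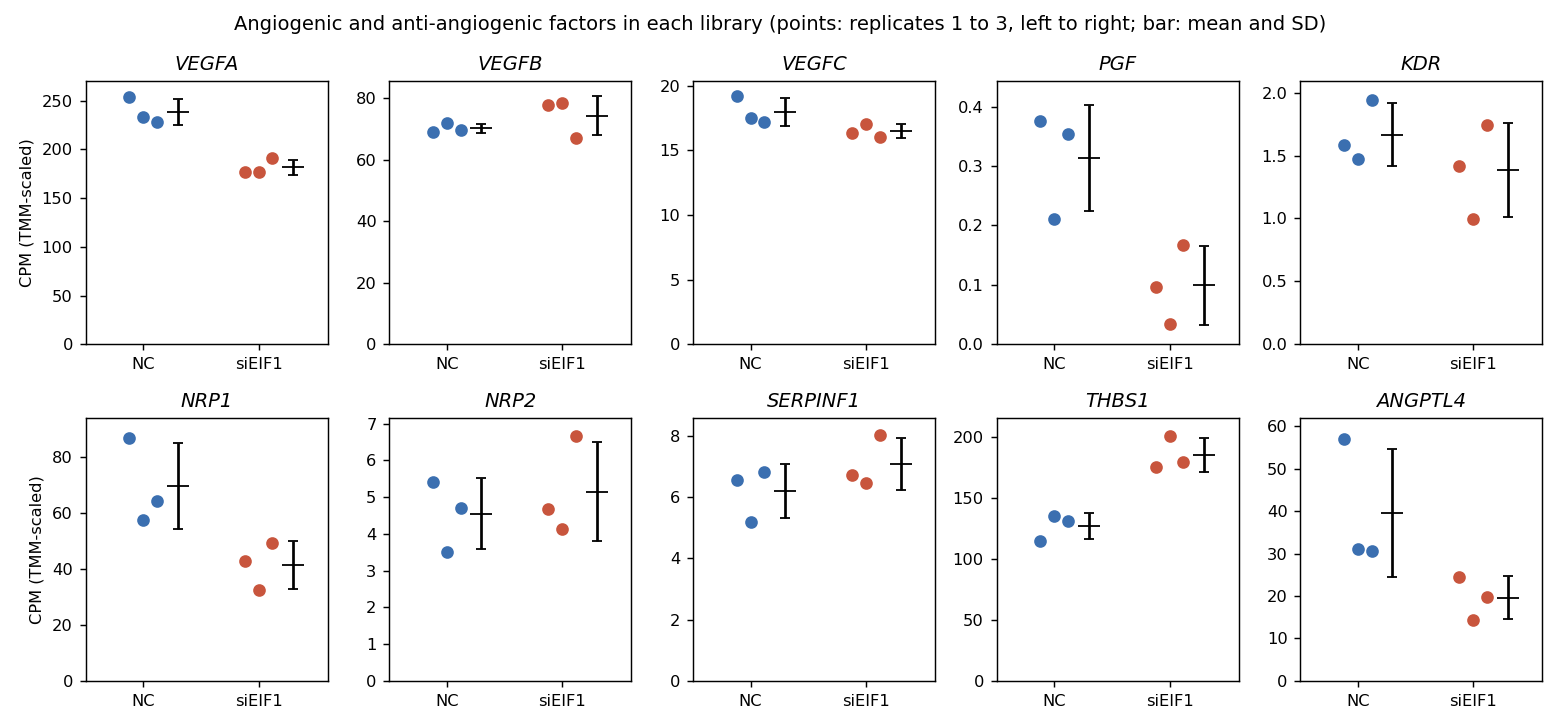
TMM-scaled CPM of each of the 10 genes (y axes, each from 0) in the NC and siEIF1 libraries, with points for replicates 1 to 3 from left to right and the mean ± SD beside them. The siEIF1 points of VEGFA, VEGFC, PGF, NRP1 and ANGPTL4 lie below every NC point and those of THBS1 lie above. Those of VEGFB, KDR, NRP2 and SERPINF1 overlap with NC. VEGFC did not pass the test and PGF was not tested. Of all tested genes, 18.9% separated as lower and 18.2% as higher.

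RefSeq promoters (GRCh38.p14, from 250 bases before to 50 after a RefSeq transcription start) are shown for THBS1 and ANGPTL4, which moved in opposite directions. THBS1 is the factor that rose, and ANGPTL4 is the factor whose fold change was largest. Promoters of VEGFA, NRP1 and SERPINF1 are not shown. The window of THBS1 is chr15:39580829-39581128 and that of ANGPTL4 is chr19:8363905-8364204, both on the forward strand. The ANGPTL4 window lies inside the gene as annotated here, which begins at 8363289, so it is not the sequence in front of that annotated start. Capitals mark the core of the hypoxia response element, searched as ACGTG or GCGTG on both strands.
THBS1: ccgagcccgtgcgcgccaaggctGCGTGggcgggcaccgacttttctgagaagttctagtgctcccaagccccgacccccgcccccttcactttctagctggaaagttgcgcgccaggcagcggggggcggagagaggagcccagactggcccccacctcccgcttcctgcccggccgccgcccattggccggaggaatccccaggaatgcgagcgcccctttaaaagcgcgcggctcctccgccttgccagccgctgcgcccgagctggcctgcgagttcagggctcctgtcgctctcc
ANGPTL4: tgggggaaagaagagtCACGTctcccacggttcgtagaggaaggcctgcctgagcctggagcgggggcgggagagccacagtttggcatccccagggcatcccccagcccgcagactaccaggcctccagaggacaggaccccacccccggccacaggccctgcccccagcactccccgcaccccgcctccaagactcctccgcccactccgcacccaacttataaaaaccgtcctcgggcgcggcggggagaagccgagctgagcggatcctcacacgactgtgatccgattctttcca
Each promoter held 1 match, at position -227 in THBS1 and at -234 in ANGPTL4, and 48.4% of 34796 RefSeq promoters of the same length held at least 1. The match in THBS1 shares its last base with a GC box (GGGCGG) at -223, a motif that was found 4 times in THBS1, 2 times in ANGPTL4 and at least once in 44.9% of promoters. A TATA box (TATAAA) was found in ANGPTL4 at -29 and in 11.6% of promoters, and it was not found in the THBS1 window. Only these exact letters were searched, and the THBS1 window holds the similar letters TTTAAAA, which were not counted. The GC content was 70.0% in THBS1 and 66.3% in ANGPTL4, against a median of 58.7%. The AP-1 site (TGANTCA), the CRE core (TGACG) and the CHR element (TTTGAA), held by 7.73%, 24.5% and 15.2% of promoters, were found in neither window. All motifs were searched on both strands, and the matches describe letters and not sites of binding.

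Among the VEGF ligands, VEGFA, the main driver of endothelial growth and permeability, fell. VEGFA (ENSG00000112715.25) is annotated on chromosome 6 from 43770184 to 43786487 (GRCh38, forward strand), with 8 exons in its canonical transcript. Its CPM was 253, 233 and 228 in NC 1, 2 and 3 and 177, 177 and 191 in siEIF1 1, 2 and 3. No siEIF1 library reached the lowest NC library, and the libraries of a group were close to each other, with NC 1 the highest of its group. The mean CPM was 238 ± 13.4 in NC and 181 ± 7.96 in siEIF1 (SD, n = 3), a log2 fold change of -0.39 ± 0.054 (SE, adjusted p = 2.18e-04, edgeR) and a level 23.8% lower. Leaving out each library in turn gave log2 fold changes from -0.43 to -0.35.

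VEGFB, a ligand of FLT1 and NRP1 that is linked to lipid uptake and cell survival more than to vessel growth, did not pass the test. VEGFB (ENSG00000173511.10; chromosome 11, 64234584 to 64239264, forward strand) had a CPM of 69.0, 71.9 and 69.6 in NC and 77.7, 78.5 and 66.9 in siEIF1. Replicates 1 and 2 of siEIF1 were above NC and replicate 3 was below it, so the groups overlapped. The log2 fold change was 0.083 ± 0.062 (adjusted p = 0.390, edgeR), with a 95% interval of the fold change from 0.966 to 1.16. Without siEIF1 3 it was 0.15 with an adjusted p of 0.0440 in the edgeR test, so that this library decided on which side of the threshold VEGFB fell.

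VEGFC, the main lymphangiogenic ligand, had a CPM of 19.2, 17.5 and 17.2 in NC and 16.4, 17.1 and 16.01 in siEIF1. The highest siEIF1 library was just below the lowest NC library, and the difference did not pass the test, with a log2 fold change of -0.12 ± 0.073 (adjusted p = 0.262, edgeR) and a 95% interval of the fold change from 0.823 to 1.02. VEGFC (ENSG00000150630.4) is annotated on chromosome 4 from 176683538 to 176792922 (reverse strand).

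PGF, placental growth factor, a ligand of FLT1, was close to the limit of detection. PGF (ENSG00000119630.14; chromosome 14, 74941834 to 74955626, reverse strand) had 10, 6 and 10 counts in NC and 3, 1 and 5 in siEIF1. The groups did not overlap, with 26 counts in all in NC and 9 in siEIF1, but PGF was removed with the low-count genes. Without that filter its log2 fold change was -1.61 ± 0.65 (adjusted p = 0.0945, edgeR). PGF passed the filter in 4 of the 6 fits that leave out 1 library. It reached 10 counts only in NC 1 and NC 3, and it entered these fits through those libraries. The filter thus selected it through the group where it was higher, so the values of these fits are no support for a change in PGF. Its log2 fold change was then -1.83 without NC 2, -1.58 without siEIF1 1, -1.22 without siEIF1 2 and -2.16 without siEIF1 3, with adjusted p-values of 0.0651, 0.114, 0.199 and 0.0382 (edgeR), so that only the last passed the threshold.

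In the make-up of the ligand mRNA, the VEGFA share was lower and the VEGFB share higher in each siEIF1 library. As a share of the summed FPKM of the 4 ligands, VEGFA made up 29.3%, 27.2% and 27.4% in NC and 21.2%, 20.9% and 24.8% in siEIF1. VEGFB made up 58.4%, 61.5% and 61.2% in NC and 68.0%, 68.0% and 63.7% in siEIF1. No library of one group reached the range of the other in either share. The share of VEGFC was 11.6 ± 0.54% in NC and 11.1 ± 0.34% in siEIF1, and that of PGF was at most 0.104%. The summed FPKM of the 4 ligands was 48.4 ± 0.57 in NC and 45.8 ± 1.51 in siEIF1. These shares are descriptions without a test. They are parts of one sum, so that a fall of VEGFA alone raises the VEGFB share. The level of VEGFB itself did not pass the test. In siEIF1 3 its FPKM of 28.06 was below the lowest NC value of 28.64, although its share was higher.

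The order of VEGFA and VEGFB depended on the length by which their counts were divided. The lengths that the FPKM values imply follow the union of all annotated exons, which is 14431 bases for VEGFA and 1970 for VEGFB, while their canonical transcripts have 3609 and 1805 bases. Per kilobase of canonical transcript, VEGFA was the higher ligand in both groups. It made up 58.4 ± 1.34% of the ligand sum in NC and 50.9 ± 3.05% in siEIF1, against 34.4 ± 1.56% and 41.7 ± 3.01% for VEGFB. The difference in the VEGFA share between siEIF1 and NC was -5.65 percentage points by FPKM and -7.45 by canonical length, so that its direction was the same on both scales. The VEGFC share changed direction with the scale, since per kilobase of canonical transcript it was 6.90% to 7.27% in NC and 7.30% to 7.55% in siEIF1.

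Among the receptors, NRP1 fell and the others did not pass the test. NRP1, the co-receptor that presents VEGF-A to KDR and also binds SEMA3A, maps to chromosome 10 from 33177492 to 33336262 (reverse strand, ENSG00000099250.18, 17 exons). Its CPM was 86.9, 57.5 and 64.4 in NC and 42.7, 32.4 and 49.2 in siEIF1. The groups did not overlap, although NC 1 stood well above NC 2 and NC 3. The log2 fold change was -0.75 ± 0.15 (adjusted p = 0.00279, edgeR), a level 40.4% lower, and ranged from -0.89 to -0.56 when each library was left out in turn.

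NRP2, the co-receptor that prefers VEGF-C and SEMA3F, had a CPM of 5.42, 3.51 and 4.70 in NC and 4.67, 4.13 and 6.66 in siEIF1. The groups overlapped, and its log2 fold change of 0.18 ± 0.19 did not pass the test (adjusted p = 0.560, edgeR), with a 95% interval of the fold change from 0.852 to 1.51. The sign rested on siEIF1 3, without which the log2 fold change was -0.044. NRP2 (ENSG00000118257.17) is annotated on chromosome 2 from 205681990 to 205798133 (forward strand).

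KDR, the principal signalling receptor of VEGF-A on endothelial cells, was detected at 42, 42 and 55 counts in NC and 44, 29 and 52 in siEIF1. The groups overlapped, and at this depth the 95% interval of the fold change was wide, from 0.582 to 1.19 (log2 fold change -0.27 ± 0.24, adjusted p = 0.491, edgeR). KDR (ENSG00000128052.10) is annotated on chromosome 4 from 55078481 to 55125595 (reverse strand). The other VEGF receptors FLT1 and FLT4 and the ligand VEGFD reached at most 1, 4 and 2 counts in any library and were not tested.

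The ratio of NRP1 to NRP2 counts, which does not depend on library scaling, was 16.03, 16.4 and 13.7 in NC and 9.16, 7.85 and 7.38 in siEIF1. The groups did not overlap, and the mean log2 ratio differed by -0.92, a ratio 47.2% lower. This ratio was chosen after the values of its genes were seen and carries no test.

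The anti-angiogenic factors both had a log2 fold change above 0, and THBS1 passed the test. THBS1 (ENSG00000137801.11; chromosome 15, 39581079 to 39599466, forward strand, 22 exons) is a matrix glycoprotein that inhibits endothelial migration and activates latent TGF-beta. Its CPM was 115, 135 and 131 in NC and 175, 201 and 179 in siEIF1. The groups were well apart, with a mean of 127 ± 10.8 in NC and 185 ± 13.96 in siEIF1 (SD, n = 3). The log2 fold change was 0.54 ± 0.068 (adjusted p = 1.05e-04, edgeR), a 1.46-fold higher level, and it ranged from 0.47 to 0.58 when each library was left out.

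SERPINF1, which encodes PEDF, a secreted serpin without protease inhibition that restrains vessel growth and is typical of the RPE, had a CPM of 6.55, 5.20 and 6.83 in NC and 6.73, 6.46 and 8.04 in siEIF1. The groups overlapped, and its log2 fold change of 0.19 ± 0.13 did not pass the test (adjusted p = 0.340, edgeR). The 95% interval of the fold change ran from 0.940 to 1.39. SERPINF1 (ENSG00000132386.11) is annotated on chromosome 17 from 1762029 to 1777565 (forward strand).

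The ratio of VEGFA to SERPINF1, the pair usually read as the angiogenic balance of the RPE, was lower in siEIF1. In counts it was 38.7, 44.8 and 33.4 in NC and 26.3, 27.4 and 23.7 in siEIF1, so that the groups did not overlap. The mean log2 ratio was 5.27 ± 0.21 in NC and 4.69 ± 0.11 in siEIF1 (SD, n = 3), a difference of -0.59 and a ratio 33.4% lower. The ratio of THBS1 to VEGFA, chosen after the values were seen, was 0.453, 0.579 and 0.575 in NC and 0.989, 1.14 and 0.939 in siEIF1, and its mean was 1.91-fold higher. These are ratios of mRNA counts within a library, given without a test, and secreted protein was not measured in these data.

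**Figure D2:**
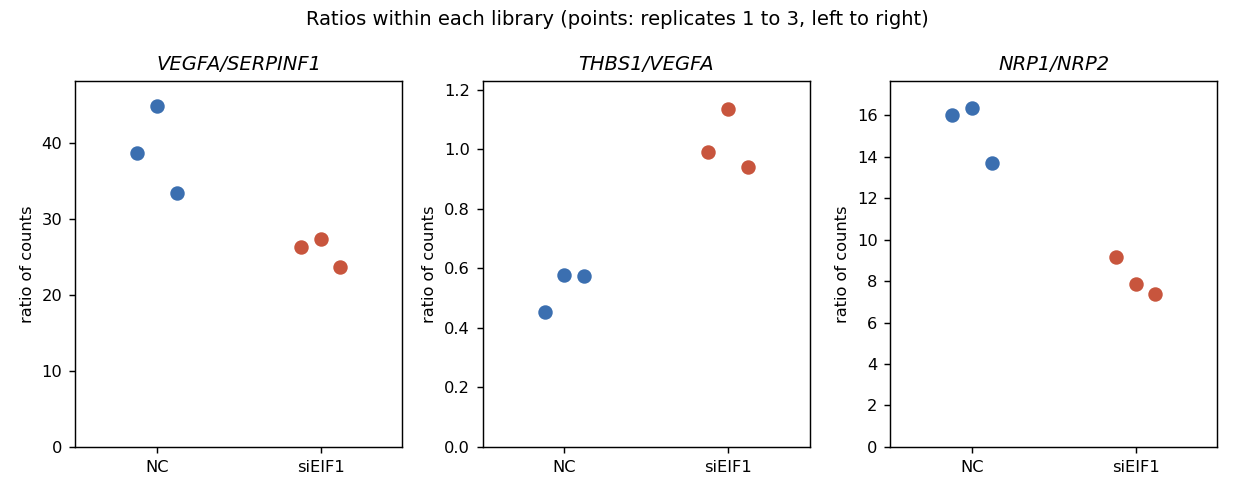
Ratios of counts within each library (y axes, each from 0) for VEGFA to SERPINF1, THBS1 to VEGFA and NRP1 to NRP2, with points for replicates 1 to 3 of NC and siEIF1 from left to right. The VEGFA to SERPINF1 ratios lie between 33.4 and 44.8 in NC and between 23.7 and 27.4 in siEIF1, and the groups do not overlap in any of the 3 ratios.

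ANGPTL4, a secreted inhibitor of lipoprotein lipase that is induced by PPAR ligands and by hypoxia and acts on vessel permeability, had the lowest fold change of the 9 tested genes. ANGPTL4 (ENSG00000167772.12) is annotated on chromosome 19 from 8363289 to 8374370 (forward strand), with 7 exons. Its CPM was 57.0, 31.0 and 30.7 in NC and 24.5, 14.3 and 19.9 in siEIF1. The groups did not overlap, but NC 1 was far above the other NC libraries. The mean CPM was 39.6 ± 15.1 in NC and 19.6 ± 5.10 in siEIF1 (SD, n = 3), with a log2 fold change of -1.01 ± 0.22 (adjusted p = 0.00528, edgeR) and a fold change of 0.497.

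The size of the ANGPTL4 change rested on single libraries. Without NC 1 the log2 fold change was -0.65 and without siEIF1 2 it was -0.83, both with an adjusted p under 0.05 and neither past the limit of 0.5 for the fold change, and over all 6 omissions it ranged from -1.20 to -0.65. ANGPTL4 and NRP1 were both highest in NC 1 and lowest in siEIF1 2. Among the NC libraries, VEGFA was also highest and THBS1 lowest in NC 1. Of the single omissions, that of NC 1 gave the smallest change for each of these called genes. The log2 fold changes were then -0.35 for VEGFA, -0.56 for NRP1, -0.65 for ANGPTL4 and 0.47 for THBS1, all with an adjusted p under 0.05 (edgeR).

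**Figure D3:**
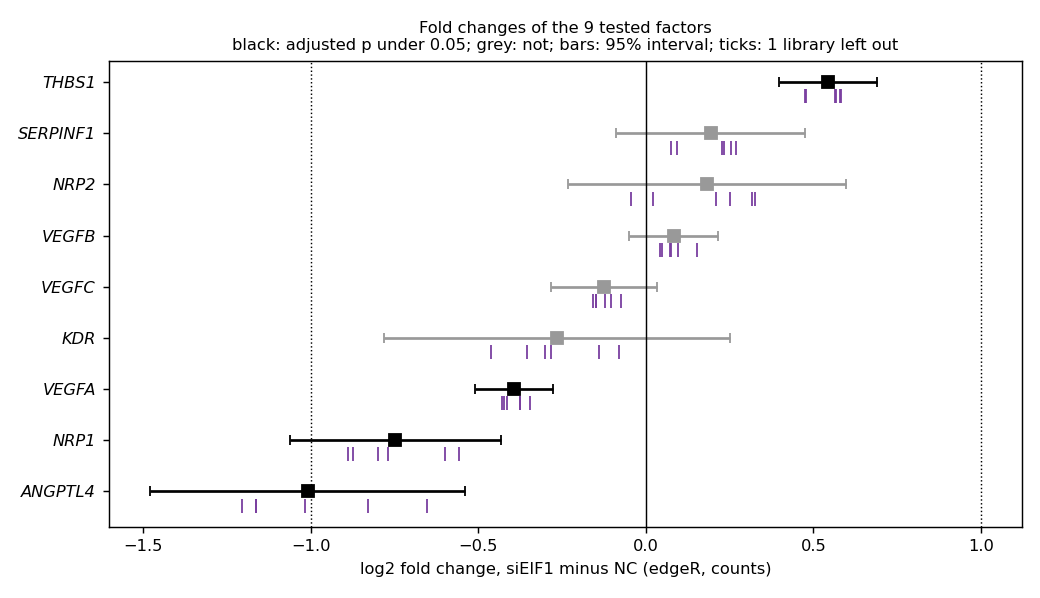
Log2 fold changes (siEIF1 minus NC, x axis) of the 9 tested genes with their 95% intervals, black where the adjusted p was under 0.05 and grey where it was not, with short ticks for the fits that leave out 1 library each. The ticks of VEGFA, NRP1, ANGPTL4 and THBS1 stay on their side of 0, those of ANGPTL4 spread from -1.20 to -0.65 across the dotted line of a 2-fold change, and those of NRP2 cross 0.

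On a per-length scale, the 10 genes covered a wide range of expression. By mean FPKM in NC, VEGFB was highest at 29.2, followed by VEGFA at 13.5, ANGPTL4 at 13.1, THBS1 at 11.4, VEGFC at 5.63, NRP1 at 4.95 and SERPINF1 at 1.70. NRP2, KDR and PGF were lowest, with mean FPKM of 0.27, 0.21 and 0.043. VEGFA and ANGPTL4, ANGPTL4 and THBS1, VEGFC and NRP1, and NRP2 and KDR are neighbours in this order whose NC libraries overlapped. In siEIF1 the order began with VEGFB at 30.5, THBS1 at 16.3, VEGFA at 10.2 and ANGPTL4 at 6.41, and neighbours overlapped for ANGPTL4 and VEGFC, NRP1 and SERPINF1, and NRP2 and KDR. THBS1 stood below VEGFA by mean FPKM in NC and above it in siEIF1. Its place below ANGPTL4 in NC rested on NC 1, where ANGPTL4 had an FPKM of 18.8 and THBS1 of 10.2, while in NC 2 and NC 3 THBS1 was already the higher, at 11.97 against 10.17 and 11.89 against 10.31. By CPM per kilobase of canonical transcript, VEGFA was first at 66.0 in NC and 50.3 in siEIF1, VEGFB was next at 38.9 and 41.2, and THBS1 moved from 16.3 to 23.7 as ANGPTL4 moved from 21.1 to 10.5.

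**Figure D4:**
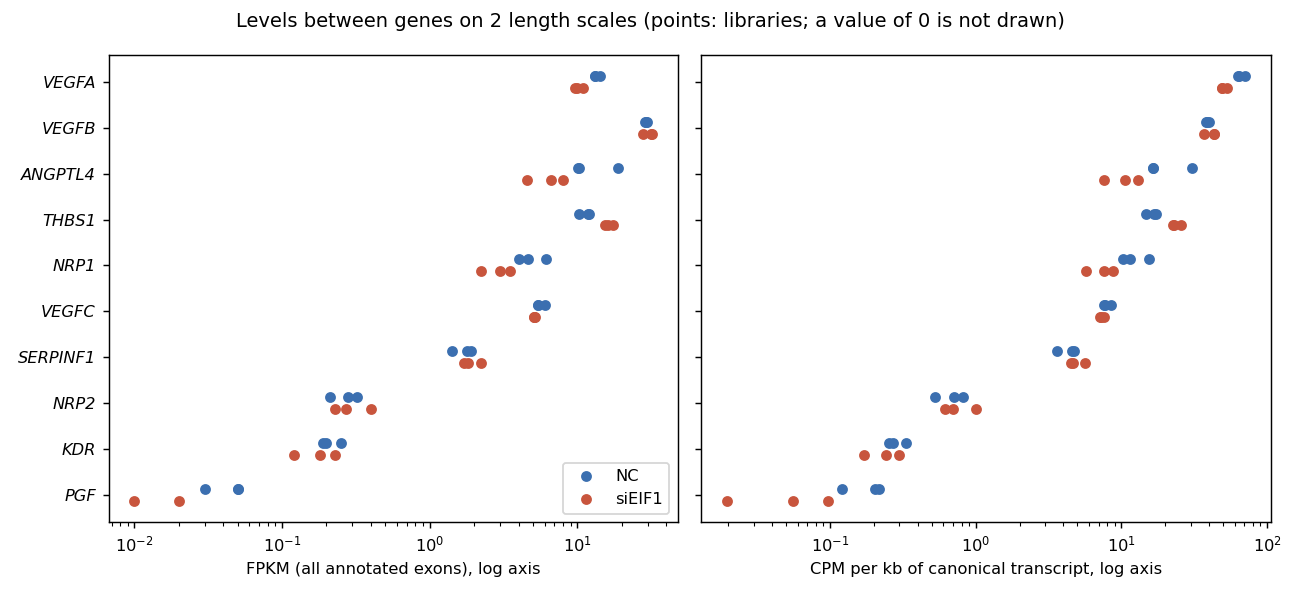
Levels of the 10 genes in every library as FPKM over all annotated exons (left) and as CPM per kilobase of canonical transcript (right), on log x axes, with NC in blue and siEIF1 in red. VEGFB is the highest gene on the left and VEGFA on the right, while NRP2, KDR and PGF are the lowest on both.

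Reads of overlapping genes on the opposite strand could add to some of these values, since the strand setting of the counting is not given in the sources used here. THBS1 overlaps exons of FSIP1 and THBS1-AS1, with mean counts of 31.3 and 4.83, and VEGFA, NRP1 and NRP2 each overlap a long non-coding RNA with mean counts of 17, 24.5 and 0.167. These counts were small beside the mean of 4537 counts for THBS1, 6024.5 for VEGFA and 1584 for NRP1. They were made with the same unknown strand setting, so they cannot bound how many such reads were added.

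The other genes of these pathways were described from 9 lists with 114 genes, of which 89 were tested. In siEIF1, 12 of the 89 (13.5%) rose and 14 (15.7%) fell, against 10.2% and 10.4% of all tested genes. Without siEIF1 2, 8 fell.

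Among the class 3 semaphorins, which share the neuropilins with VEGF, and their plexin receptors, 3 of 10 tested genes rose and 1 fell, with a median log2 fold change of 0.18. SEMA3B, which competes with VEGF-A for neuropilins, rose from 242, 285 and 261 CPM in NC to 364, 390 and 362 in siEIF1 (log2 fold change 0.50 ± 0.061). The plexins PLXNA1 (0.34) and PLXND1 (0.25) rose and SEMA3F, the usual NRP2 ligand, fell (-0.42). All SEMA3B libraries in siEIF1 exceeded those in NC. The calls of PLXNA1, PLXND1 and SEMA3F were each lost in 2 to 7 of 14 alternative analyses.

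Of 6 tested genes of VEGFC maturation, CCBE1, which helps the protease ADAMTS3 to process VEGF-C, rose by a log2 fold change of 0.25, and none fell. The list median was 0.068.

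Of 18 tested genes in the list of other pro-angiogenic factors, 4 fell and 1 rose, with a median of 0.059. FGF2 (basic fibroblast growth factor) had a CPM of 1011, 1029 and 1036 in NC and 768, 694 and 746 in siEIF1, a log2 fold change of -0.48 ± 0.052. The cytokines IL6 (-1.15) and CXCL8 (-0.72) also fell, from low levels of 1.97 to 3.91 and 4.43 to 7.64 CPM in NC. The NC libraries of both cytokines were highest in NC 1, as for VEGFA, NRP1 and ANGPTL4. EFNB2, an ephrin of arterial and sprouting endothelium, rose (0.29), and PDGFA, named after its values were seen as the fifth called gene of the list, fell (-0.37). Of these 5, FGF2 and IL6 were called in every alternative analysis. Leaving out NC 1 or siEIF1 2 left 2 that fell.

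In the list of other anti-angiogenic factors, 1 of 7 tested genes rose and 1 fell, with a median of 0.011. ADAMTS1, a metalloprotease that can bind VEGF-A and cleave thrombospondins, fell from 60.6, 43.0 and 46.1 CPM in NC to 21.2, 18.4 and 24.9 in siEIF1 (log2 fold change -1.21 ± 0.12). COL18A1, whose C-terminal fragment is endostatin, rose (0.24). Thus THBS1 and COL18A1 rose while ADAMTS1 fell, and the anti-angiogenic genes did not move in a single direction.

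Receptors and partners of PEDF, thrombospondin-1 and ANGPTL4 gave 3 genes that rose and 1 that fell among 10 tested, with a median of 0.13. CALR, calreticulin, a partner of thrombospondin-1 at the cell surface and a chaperone of the endoplasmic reticulum, rose from 743 to 765 CPM across NC to 1036 to 1110 across siEIF1 (0.51). PLXDC2, described as a PEDF receptor, rose (0.32), as did the integrin subunit ITGAV (0.20). PNPLA2, a lipase also described as a PEDF receptor, fell (-0.19), but without NC 3 its call was lost (-0.18, adjusted p = 0.0541, edgeR) and 0 genes of the list fell.

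Of the 8 regulators of hypoxia-inducible factors, all tested, 2 fell and none rose. EPAS1 (HIF-2 alpha) had a CPM of 293, 249 and 251 in NC and 173, 169 and 201 in siEIF1 (log2 fold change -0.54 ± 0.075), with no overlap. HIF1A fell less, from 601 to 650 CPM across NC to 513 to 563 across siEIF1 (-0.21), and its call was lost in 3 of 14 alternatives. The list median was 0.073. These are mRNA levels, and the HIF proteins are regulated mainly through their stability.

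Among 19 hypoxia-responsive genes, 3 fell and 1 rose, with a median of -0.13 and 4 of 19 fold changes above 0. Of all tested genes, 10.4% fell and 10.2% rose, with a median of 0.0033. LOX, lysyl oxidase (-0.45), HK2, hexokinase 2 (-0.41), and PGK1, a glycolytic kinase (-0.17), fell, and the repressor BHLHE40 rose (0.23). BHLHE40 lost its call in 7 of 14 alternatives and PGK1 in 5. VEGFA and ANGPTL4 are themselves commonly counted among hypoxia-responsive genes and were kept out of this list.

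Of 11 tested PPAR genes and targets, the class to which ANGPTL4 also belongs, 2 rose and 2 fell, with a median of 0.037. PLIN2, a coat protein of lipid droplets, had a CPM of 718, 515 and 480 in NC and 373, 339 and 332 in siEIF1 (-0.72 ± 0.11). NC 1 was again the highest NC library. PPARD fell (-0.25), while PPARA (0.58) and CAT, catalase (0.39), rose. PPARG (0.089) did not pass the test. The call of PPARD was lost without NC 3 (adjusted p = 0.0579, edgeR) and without siEIF1 2 (adjusted p = 0.0655, edgeR).

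**Figure D5:**
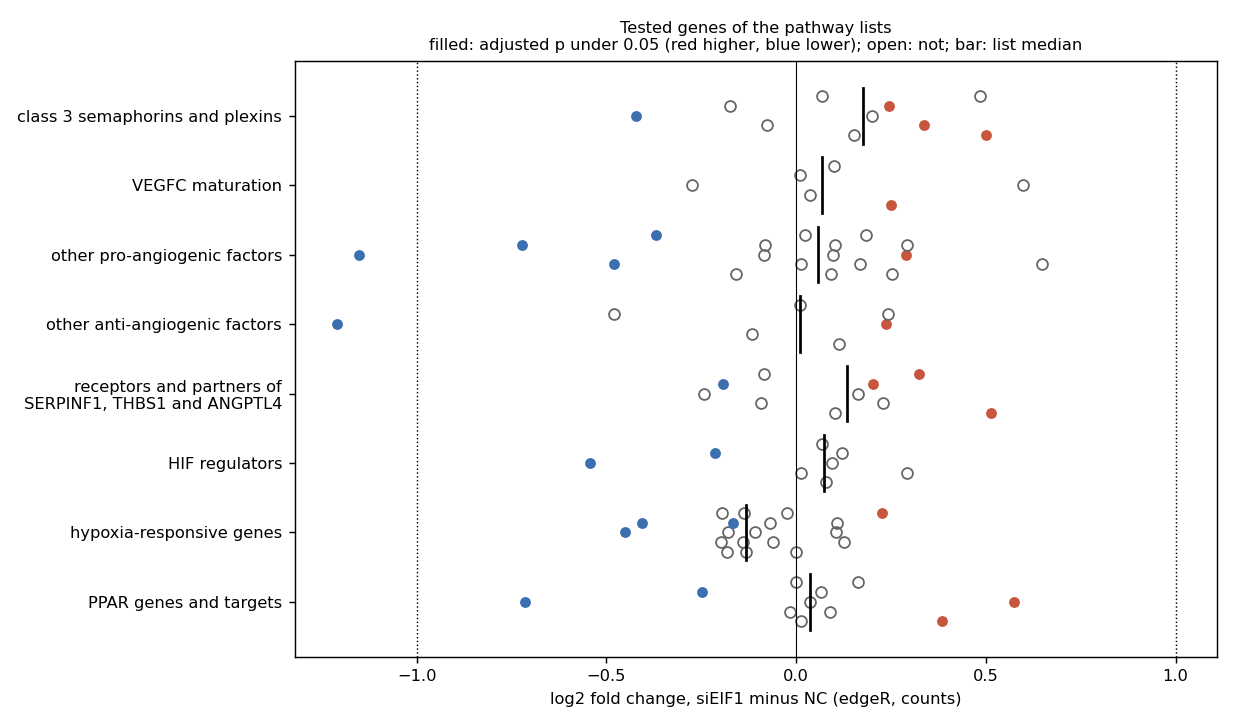
Log2 fold changes (siEIF1 minus NC, x axis) of the 89 tested genes in 8 of the 9 pathway lists, filled where the adjusted p was under 0.05 (red for higher, blue for lower) and open where it was not, with a bar at each list's median. The hypoxia-responsive genes have the lowest median, at -0.13, and IL6 and ADAMTS1 are the 2 points beyond the dotted line of a 2-fold lower level.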

How the data were processed

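ARPE-19 libraries (3 NC, 3 siEIF1) were poly(A)-selected and sequenced as paired-end reads. Both the labels and the study's methods call them strand-specific, but they describe different protocols, with adaptor ligation in the labels and a dUTP kit in the methods. The authors trimmed reads with FASTX-Toolkit, aligned them to GRCh38 with HISAT2, and deposited uniquely mapped counts per gene and FPKM values. The counting program, strand setting and annotation release are not given in the sources used here. Groups follow the sample titles, and 0 data columns were left unmatched. From the deposited counts, edgeR 4.0.16 (TMM, filterByExpr, quasi-likelihood test) in R 4.3.3 was fitted on 16749 genes, after a check on simulated counts, and Benjamini-Hochberg adjusted p-values cover all of them. FPKM was absent for 343 genes. Standard errors come from the quasi-likelihood F statistic. Alternatives were other scalings and filters, DESeq2 1.42.0, limma 3.58.1 on log2(FPKM + 1) and log2(FPKM + 0.1), a replicate block, and omission of each library. Coordinates and lengths came from GENCODE on GRCh38. The 10 genes and the lists were chosen with earlier results of these data known. Named from a list were its called genes, up to the 4 with the smallest p-values, or without calls the 2 with the highest counts. Some genes of these lists and some markers were not analysed here. The libraries of a group differed by more than counting error, with chi-square values per degree of freedom of 3.03 to 14.1.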

Additional observations from a re-analysis of the deposited data

How the results depend on the processing

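The changes of VEGFA, NRP1, THBS1 and ANGPTL4 kept their direction and an adjusted p under 0.05 in all 14 alternatives. ANGPTL4 was only just under it with DESeq2 (adjusted p = 0.0420) and with limma (adjusted p = 0.0442 and 0.0391). Without the filter on low counts the standard errors of NRP1 and ANGPTL4 were 0.065 and 0.075, against 0.15 and 0.22 in the main fit. That fit therefore adds little for these 2 genes. The number of the 10 genes past the fold limit as well was 1, and it was 0 with limma on log2(FPKM + 1) or log2(FPKM + 0.1) (log2 fold change of ANGPTL4 -0.90 and -0.99) and with the replicate block (-0.99). With each library left out it ranged from 0 to 2, the 2 being ANGPTL4 and PGF without siEIF1 3. PGF entered that fit only through its NC counts, so it is not support for a change in PGF. The number that rose ranged from 1 to 2, VEGFB being added without siEIF1 3, and that of list genes that fell from 8 to 14. Over all 14 alternatives the latter ranged from 8 to 20. With a library left out, the log2 fold change of VEGFB ranged from 0.043 to 0.15 and that of NRP2 from -0.044 to 0.33. The cause of these shifts was not tested. The VEGFA to SERPINF1 ratio (-0.69 to -0.48, log2) and the VEGFA share (-6.91 to -4.97 percentage points, and -7.45 by canonical length, a scale chosen after seeing the data) kept their sign. Of 26 called list genes, 15 were called in every alternative, and 0 of 364 fits reversed.

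Same-numbered libraries deviated together with correlations of 0.149, 0.0946 and 0.128, and each library correlated best with its own number. Because 1 of 3 was under the limit of 0.1, the main fit did not take the numbers as pairs. These values do not exclude a pairing. With the replicate block the standard error was 0.083 against 0.15 for NRP1 and 0.088 against 0.22 for ANGPTL4. The fits that leave out 1 library did not use the block. With the replicate block, 2149 genes rose and 2128 fell, against 1702 and 1744 without it, and 1 and 3 of the 9 tested factors did. The block also raised the called list genes from 26 to 37, with 20 that fell against 14, and the hypoxia-responsive genes that fell from 3 to 7. The interval of KDR and the counts of PGF show where depth limits these data, and changes of the size seen for VEGFA could not have been resolved for either.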

Other observations

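Markers of other cell types were counted in the same way. Of 4 tested pericyte and smooth muscle markers, ACTA2 (smooth muscle actin, log2 fold change 0.66) and PDGFRB (0.60) rose, where 10.2% of all tested genes rose. RGS5 (-0.29) and CSPG4 (0.28) did not pass the test. The summed FPKM of the 7 listed genes was 18.1 to 22.2 in NC and 29.9 to 33.1 in siEIF1, most of it from ACTA2 and PDGFRB. DES, MYH11 and NOTCH3 reached at most 2, 12 and 11 counts. Of 8 tested RPE markers, 3 rose, against 10.2% of all tested genes. They were RLBP1 (1.55, from at most 0.60 CPM in NC) and the keratins KRT8 (0.24) and KRT18 (0.25). The log2 fold change of BEST1 was -0.32 (adjusted p = 0.106, edgeR). The summed FPKM of the RPE list was 521 to 540 in NC and 563 to 610 in siEIF1. Most of it came from KRT18 (mean 326 in NC and 382 in siEIF1) and KRT8 (113 and 131), while BEST1 was at 66.0 and 52.0. None of 3 tested endothelial markers passed the test, with a summed FPKM of 1.96 to 2.44 in NC and 2.08 to 2.66 in siEIF1, most of it from ROBO4. The 3 leukocyte and macrophage markers summed to 0.19 to 0.29 in NC and 0.30 to 0.36 in siEIF1, and the 1 tested, CSF1R, had a log2 fold change of 0.44 (adjusted p = 0.189, edgeR). The part of these markers in the changes of the angiogenic factors was not tested.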
